A study of Mus musculus with 360 samples.

Results

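Glycolysis is the pathway by which the cytosol splits glucose into pyruvate and gains ATP and NADH. The 10 genes described here encode enzymes of its steps, from the hexokinases Hk1 and Hk2, through Pfkp, Aldoa, Tpi1, Gapdh, Pgk1, Eno1 and Pkm, to Ldha, which turns pyruvate into lactate and so gives back NAD+. Leukemia cells and other dividing cells often run this pathway to lactate even with oxygen at hand, and many of its genes are known targets of the hypoxia factor HIF-1 and of Myc. The members were listed by gene symbol, by a rule with no measured value in it, but with earlier results of these data known, and all 10 were found among the 24781 genes of the table.

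The RNA came from single cells of C1498, a mouse line labelled as acute myeloid leukemia. Cells of the first arm were heated at 45 °C for 10 min, and cells of the control arm were handled for the same time at 37 °C. Single cells were then picked under the microscope 1 h before heating (-1 h) or 1, 5, 10 or 15 h from its end, so that the -1 h cells of both arms had not been heated. The 45 °C arm held 6 cells before heating and 309 after it, of which 13 came from 1 h, 52 from 10 h, 21 from 15 h and all others from 5 h. The 37 °C arm held 11, 11, 6, 6 and 11 cells in order of time. Because the labels name no culture, each of the 10 groups counts as 1 sample: no comparison has a replicate check, and no p-value is given. The 6 unheated groups, with 51 cells, are the 37 °C groups and the 45 °C arm before heating.

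Each level below is the sum of the UMIs (molecules told apart by their barcode) of all cells of a group, scaled to 1e6 UMIs of that group (CPM), with an exact 95% Poisson interval in brackets. Each ratio is the log2 of 45 °C over 37 °C with an exact 95% interval. Intervals cover counting error only and not the spread between cells or cultures. A lower level in a group cannot be told apart from more RNA of other genes, since both change the same share.

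The start regions of 3 members are shown because the results turn on them: Hk2 and Tpi1 were the members with the lowest ratios late after heating whose levels also lay under all unheated groups, and Pgk1 had the highest ratio at 5 h. The sequences are the 250 bases before the RefSeq start, build GRCm38.p6, read 5′ to 3′ on the strand of the gene. The Hk2 window lies at chr6:82774455-82774704 on the minus strand, the Tpi1 window at chr6:124814159-124814408 on the minus strand, and the Pgk1 window at chrX:106186850-106187099 on the plus strand. Capitals mark ACGTG, a core that HIF-1 is known to bind, or CACGT, the same core on the other strand.
Hk2: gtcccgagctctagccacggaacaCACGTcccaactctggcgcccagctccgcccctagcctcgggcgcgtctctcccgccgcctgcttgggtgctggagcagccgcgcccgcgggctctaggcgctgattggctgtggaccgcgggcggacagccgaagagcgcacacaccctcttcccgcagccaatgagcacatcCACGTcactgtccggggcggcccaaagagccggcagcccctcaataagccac
Tpi1: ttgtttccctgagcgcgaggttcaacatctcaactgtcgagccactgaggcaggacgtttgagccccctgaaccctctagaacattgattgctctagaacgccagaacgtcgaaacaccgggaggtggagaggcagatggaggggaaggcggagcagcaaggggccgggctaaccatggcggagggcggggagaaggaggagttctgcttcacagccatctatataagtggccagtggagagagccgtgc
Pgk1: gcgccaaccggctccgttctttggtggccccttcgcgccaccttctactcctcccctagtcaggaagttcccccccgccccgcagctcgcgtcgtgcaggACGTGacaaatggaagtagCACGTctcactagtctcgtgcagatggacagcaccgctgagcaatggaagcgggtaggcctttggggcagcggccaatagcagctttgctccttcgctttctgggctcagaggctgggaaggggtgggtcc
The Hk2 and Pgk1 windows each held 2 such cores, and the Tpi1 window held 0. Across the 17 windows listed for the 10 members, ACGTG on either strand was in 6 windows (of Hk2, Aldoa, Pgk1, Pkm and Ldha), against 16.6% of the 32851 mouse windows. GCGTG, the other form of the core, was in 7 of the 17 (of Hk1, Pfkp, Gapdh, Eno1 and Ldha), against 28.2% of windows. CACGTG, which overlaps ACGTG and is known as an E-box of Myc, was in 1 of the 17 (of Ldha), against 6.02%. The heat shock element units GAANNTTC and TTCNNGAA were in no member's window, against 6.69% and 7.17% of all windows. A match is a description of letters, and no match says only that the letters are not in that window.

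Some properties of the libraries bear on every value. Group totals ranged from 173274 UMIs (37 °C, 10 h) to 6809100 UMIs (45 °C, 5 h), and the median UMIs per cell from 18741 (45 °C, 10 h) to 40544 (37 °C, -1 h). The unheated cells had the leukocyte genes Ptprc at 501.5 CPM, Coro1a at 1144 CPM and Laptm5 at 308 CPM. Of the 9 myeloid markers, 7 (Lyz2, Elane, Spi1, Csf1r, Kit, S100a8 and S100a9) had 0 UMIs over all 360 cells, and Mpo and Itgam had 14 and 5. Of 5 T lineage genes, Cd3e and Cd3g stood at 199.2 and 230.1 CPM in unheated cells, while Cd3d had 9 UMIs (4.71 CPM) and Cd4 and Cd8a had 0. The markers thus go with a leukocyte but not with the myeloid name in the label.

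In 11 heated cells the ribosomal RNA precursor Rn45s held at least 50% of the UMIs. In the 45 °C arm, 2 of them came from 5 h, 7 from 10 h and 2 from 15 h, and no unheated cell was like this. Their summed level of the 10 enzymes ran from 0 to 1429 CPM, with a median of 0, and 6 of the 11 had no UMI of any member. The other 349 cells ran from 773 to 9004 CPM with a median of 4730.2 CPM. The lowest of these, an unheated cell at 15 h with 7759 UMIs, had Rn45s at 8.04%. The summed ratio, the counts against the unheated range and the main single-cell ranges at 10 h and 15 h are given with and without them. So are the correlations at 5 h and 10 h.

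For 2 members the count is uncertain, since a near-identical copy was listed too and how reads were split between copies is not given in the sources used here. Eno1 (5440.3 UMIs over all cells) was listed beside Eno1b (5526 UMIs), whose transcript is 99.5% identical over 1652 bases, and in 265 of 360 cells the values were equal within 0.02 UMI. Gapdh (15536 UMIs) was listed beside the processed pseudogene Gm12070 (8473 UMIs), 99.9% identical over 1002 bases, and their values were equal in 12 of 360 cells. Values with fractions were seen for Gapdh in 324 cells, against 2 cells for Hk2 and 6 for Tpi1.

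Summed over the 10 enzymes, glycolysis RNA lay between 3690.3 and 5652 CPM in all 10 groups. In the 45 °C arm the level was 5070.0 CPM (4763 to 5392) before heating, then 5529 CPM (5311 to 5755) at 1 h, 5028 CPM (4975 to 5082) at 5 h, 4169 CPM (4042 to 4299) at 10 h and 3690.3 CPM (3546 to 3838) at 15 h. In the 37 °C arm it was 5652 CPM (5436 to 5876) before, then 5253 CPM (5031 to 5485) at 1 h, 4304 CPM (4047 to 4572) at 5 h, 4819 CPM (4498 to 5157) at 10 h and 4332 CPM (4140.3 to 4529) at 15 h. The heated groups at 10 h and 15 h were the only ones below all 6 unheated groups, and the 15 h group was the lowest of all, with an interval that did not touch that of the 10 h group. In order of level, the next groups up (37 °C at 5 h, 15 h and 10 h) each overlapped their neighbour within counting error.

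The log2 ratio of the sum was -0.16 (-0.26 to -0.05) before heating, a difference between arms without heat. It was 0.07 (-0.01 to 0.16) at 1 h, 0.22 (0.14 to 0.31) at 5 h, -0.21 (-0.32 to -0.10) at 10 h and -0.23 (-0.32 to -0.14) at 15 h. Without the Rn45s-dominated cells the last pair were -0.18 and -0.20, about as large as with them. The scaling mattered more: with median-of-ratios size factors, which moved the log2 ratio of every gene up by 0.15, 0.20 and 0.10 at 5, 10 and 15 h, the sum stood at 0.37, -0.01 and -0.13. Before heating the same factors moved the ratio by -0.05. On CPM, the values at 5, 10 and 15 h thus lay near the size of the difference before heating. Those at 5 h and 10 h also lay near the size of the scaling shift.

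Both arms went down with time in culture. Against its own group before heating, the sum of the 45 °C arm was at 0.12 (0.02 to 0.23), -0.01 (-0.10 to 0.08), -0.28 (-0.38 to -0.18) and -0.46 (-0.56 to -0.35) on the log2 scale at 1, 5, 10 and 15 h. That of the 37 °C arm was at -0.11 (-0.19 to -0.02), -0.39 (-0.50 to -0.29), -0.23 (-0.34 to -0.12) and -0.38 (-0.47 to -0.30). A decline of similar size was thus present without heat at 15 h, and it came earlier in the 37 °C arm, whose 5 h group held 6 cells. The difference between the 2 courses is the ratio between arms given above, less the difference before heating, and it had no replicate check.

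**Figure D1:**
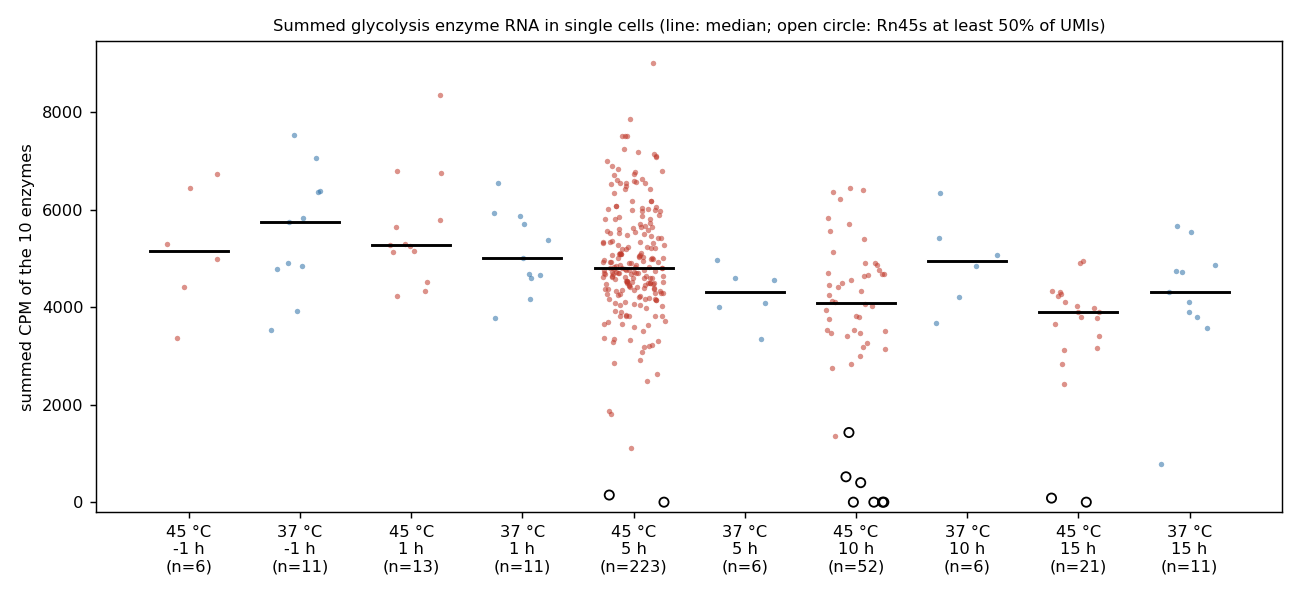
Summed CPM of the 10 glycolysis enzymes in each of the 360 cells (vertical axis) by group (horizontal axis, 45 °C left of 37 °C at each time), with lines at the group medians and open circles for the 11 cells with Rn45s at 50% of UMIs or more. The open circles lie between 0 and 1429 CPM, and the other 349 cells run from 773 to 9004 CPM.

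Single cells overlapped widely. At 10 h the summed level ran from 0 through a median of 4089 to 6448 CPM over the 52 heated cells, against 3675, 4956 and 6348 CPM over the 6 cells kept at 37 °C. Of the heated cells, 43 lay below the median 37 °C cell and 20 below the lowest. At 15 h it ran from 0 through 3896 to 4950 CPM over the 21 heated cells, against 773, 4318 and 5670.2 CPM over 11 cells, with 18 heated cells below the median 37 °C cell and 2 below the lowest. Those 2 cells were Rn45s-dominated, as were 7 of the 20 cells below the lowest at 10 h. Without such cells the lowest and median heated cell had 1349 and 4331 CPM at 10 h, and 2429 and 3909 CPM at 15 h.

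To read the members one by one, a gene was counted as measured with 20 or more UMIs over a pair of groups and 10 CPM or more in either, and as lower or higher at 1.5-fold or more. Before heating, 0 of the 9 measured members were lower, against 12.8% of the 4791 measured genes. At 1 h, 1 of 10 (Hk2) was lower, against 19.6% of 5264 genes, and at 5 h again 1 of 10 (Hk2), against 30.5% of 7594. At 10 h, 3 of 10 (Hk1, Hk2 and Tpi1) were lower, against 19.2% of 6434, and at 15 h the same 3 genes, against 12% of 6340. No member was 1.5-fold higher at any time, while the share of all measured genes was 11.8% before heating and 5.70%, 12.5%, 21.9% and 12.3% in order of time after it. Shares of 1 or 3 members in 10 near those of all genes are no result about the enzymes.

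The median log2 ratio of the 10 members was -0.15 before heating and -0.02, 0.22, -0.27 and -0.22 in order of time after it, beside 0.01, -0.14, -0.23, 0.00 and -0.02 for all measured genes. On CPM, 9 of 10 members lay below 0 before heating, 8 of 10 above 0 at 5 h and 9 of 10 below 0 at 10 h and at 15 h. With size factors these counts were 9 below before heating, 9 above at 5 h, 6 below at 10 h and 8 below at 15 h. The members thus stood a little above the middle of the transcriptome at 5 h and a little under it at 10 h and 15 h. They also stood a little under it before heating (-0.15 beside 0.01), so the late position was not particular to heated cells.

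A second reading set each heated group against the whole range of the 6 unheated groups. At 1 h, 0 members lay below all 6 (16.6% of genes) and 2, Gapdh and Pgk1, lay above all 6 (9.21%). At 5 h, 2 lay below, Hk2 and Pfkp (18.5%), and 0 above (7.35%). At 10 h, 5 lay below (Hk2, Tpi1, Eno1, Pkm and Ldha), against 15.3% of genes, and 0 above (21.6%). At 15 h, 8 lay below (all but Hk1 and Pfkp), against 13.3% of genes, and 0 above (15.8%).

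The 15 h count depends on which genes it is read against and on the scaling. Among genes with at least 200 UMIs in the pair, all 7 members that qualified lay below at 15 h, against 31.4% of 812 genes, 4 of 7 at 10 h, against 22.2% of 838, and 1 of 8 (Pfkp) at 5 h, against 17.8%. In the same class Gapdh and Pgk1 lay above at 1 h, against 20.6%. With size factors over the 10 groups, 0 lay below at 1 h (15.3%), 2 at 5 h (Hk2 and Pfkp, 15.7%), 4 at 10 h (Hk2, Tpi1, Pkm and Ldha, 10.9%) and 5 at 15 h (Hk2, Tpi1, Gapdh, Eno1 and Pkm, 7.84%). Above all 6 were then Gapdh and Pgk1 at 1 h (10.3%) and at 5 h (9.40%), Gapdh alone at 10 h (28.9%) and none at 15 h (24.8%). Without the Rn45s-dominated cells, on CPM, 8 lay below at 15 h (12.2%) and none above (17.2%), while at 10 h 4 lay below, Eno1 being no longer among them (14.3%), and Gapdh lay above (23.2%). The members share cells, controls and a total, so their counts are not independent of each other.

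**Figure D2:**
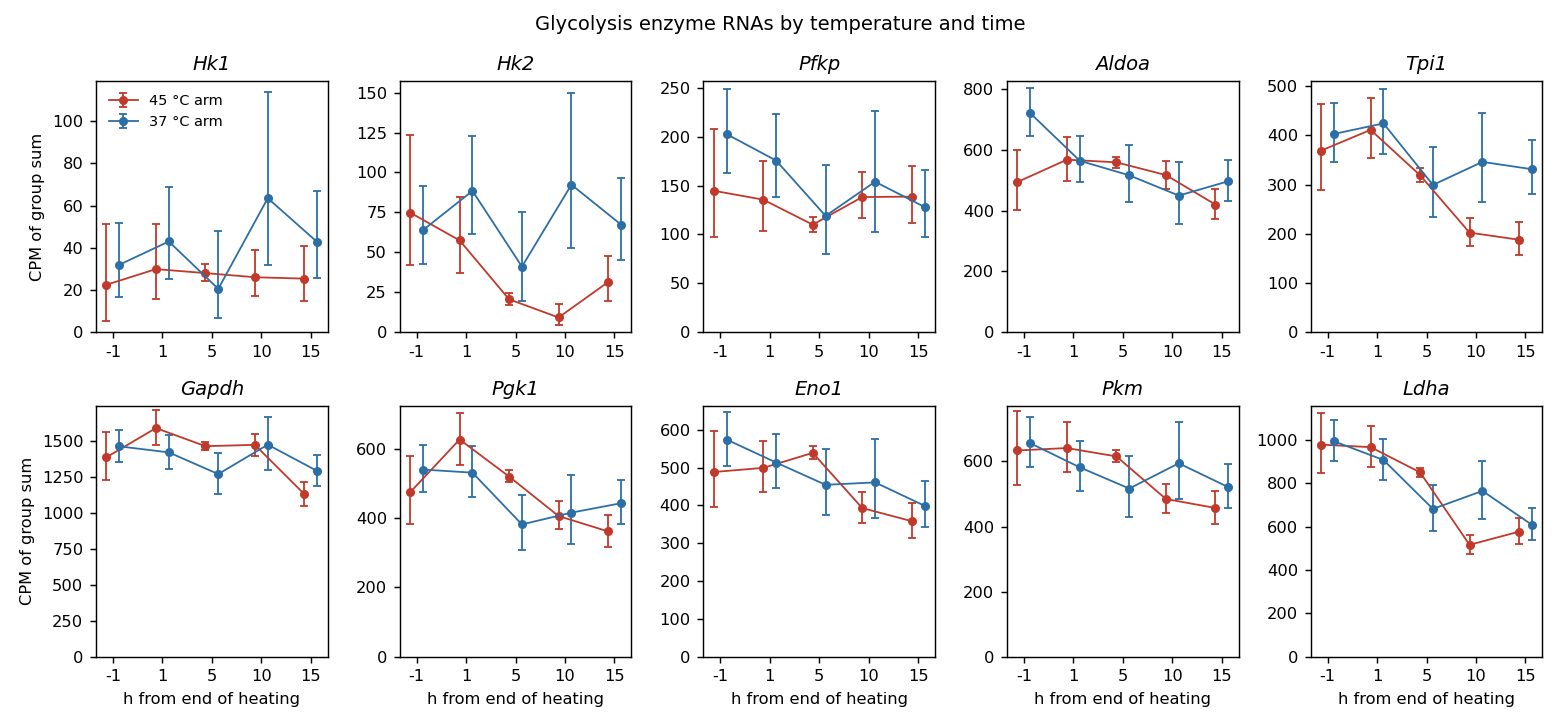
CPM of each of the 10 enzymes (vertical axes, each from 0) against the time of picking in h from the end of heating (horizontal axes), with the 45 °C arm in red and the 37 °C arm in blue, and bars for the exact 95% Poisson interval of the group sum. Hk2 in the 45 °C arm is at 9.18 CPM at 10 h against 92.3 CPM in the 37 °C arm, and Tpi1 is at 202.4 against 346 CPM at 10 h and 187.9 against 331 CPM at 15 h.

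The hexokinases, which trap glucose in the cell as glucose 6-phosphate, held the largest difference of the pathway. Hk2 is the regulated form, bound to mitochondria in many dividing cells. In the 45 °C arm its level was 74.9 CPM (41.9 to 123.5) before heating, 57.5 CPM (37.2 to 84.8) at 1 h, 20.6 CPM (17.3 to 24.3) at 5 h, 9.18 CPM (4.20 to 17.4) at 10 h and 31.3 CPM (19.4 to 47.9) at 15 h. In the 37 °C arm it was 63.9 CPM (42.8 to 91.8), 88.5 CPM (61.6 to 123.02), 41.02 CPM (19.7 to 75.4), 92.3 CPM (52.8 to 149.95) and 67.4 CPM (45.5 to 96.2) at the same times. The heated groups at 5, 10 and 15 h were the 3 lowest of the 10, and 37 °C at 5 h, with 10 UMIs, came next and overlapped the 15 h heated group.

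The log2 ratio of Hk2 was 0.25 (-0.78 to 1.18) before heating and -0.61 (-1.42 to 0.16) at 1 h, both intervals holding 0. Without the cell of the 45 °C arm that held 8 of the 15 UMIs before heating that value was -0.53, and without cell 7 of the 37 °C arm the value at 1 h was -0.43. The ratio was -1.06 (-1.92 to 0.10) at 5 h, -3.30 (-4.69 to -2.06) at 10 h, a 9.82-fold higher level at 37 °C, and -1.10 (-1.98 to -0.25) at 15 h. Against all unheated cells together, whose sum holds more UMIs than 1 group, it was -1.78 (-2.13 to -1.43) at 5 h, -2.87 (-4.10 to -1.98) at 10 h and -1.14 (-1.91 to -0.50) at 15 h. The 10 h value rests on 9 UMIs in 52 heated cells and 16 UMIs in 6 control cells, and with any single cell left out it stayed between -3.61 and -2.94.

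In single cells, Hk2 was found in 34.98%, 13.5% and 42.9% of heated cells at 5, 10 and 15 h, against 66.7%, 100% and 90.9% of 37 °C cells. At 10 h the heated cells ran from 0 through a median of 0 to 100.6 CPM, and the 6 cells at 37 °C from 27.9 through 83.5 to 274 CPM. The heated median was also 0 without the 7 Rn45s-dominated cells. Of the 52 heated cells, 45 lay below the lowest 37 °C cell. Depth differed between the groups, so every cell was also thinned to 5000 UMIs, which left out 1 heated cell at 5 h and 5 at 10 h. The shares with an Hk2 UMI were then 9.01% (5.59 to 13.6), 4.26% (0.52 to 14.5) and 4.76% (0.12 to 23.8) in heated cells, against 33.3% (4.33 to 77.7), 33.3% (4.33 to 77.7) and 27.3% (6.02 to 60.97) at 37 °C. The exact binomial intervals overlapped at each of these times, so at this depth single cells alone do not separate the arms.

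Hk1, the form that most cells keep at a steady level, had few UMIs. It was at 22.5, 29.9, 27.98, 26.02 and 25.4 CPM in the 45 °C arm and at 31.9, 42.96, 20.5, 63.5 and 42.7 CPM in the 37 °C arm, in order of time. Within counting error each group overlapped its neighbour in order of level. The 1.5-fold calls of Hk1 at 10 h (log2 -1.30, -2.33 to -0.09) and 15 h (-0.75, -1.79 to 0.27) rest on 37 °C groups of 11 and 19 UMIs. Against all unheated cells the values were -0.47 (-1.19 to 0.18) and -0.52 (-1.41 to 0.23), and against the 45 °C arm before heating, with 4 UMIs, they were 0.27 and 0.22. Without cell 9 of the 37 °C arm the 15 h ratio was -0.55, and no heated group left the unheated range.

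The share of Hk2 among the UMIs of both hexokinases therefore shifted. It was 78.9% (54.4 to 93.9) before heating, 65.8% (48.6 to 80.4) at 1 h, 42.4% (37.03 to 47.96) at 5 h, 25.7% (12.5 to 43.3) at 10 h and 55.3% (38.3 to 71.4) at 15 h in the 45 °C arm. In the 37 °C arm it was 67.4% (51.5 to 80.9), 67.3% (52.9 to 79.7), 66.7% (38.4 to 88.2), 59.3% (38.8 to 77.6) and 61.2% (46.2 to 74.8). This share does not depend on the scaling of the totals. At 5, 10 and 15 h the heated values lay under all unheated ones, yet the exact binomial intervals of the 2 arms at the same time overlapped, with 15, 27 and 49 hexokinase UMIs in the 37 °C groups.

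**Figure D3:**
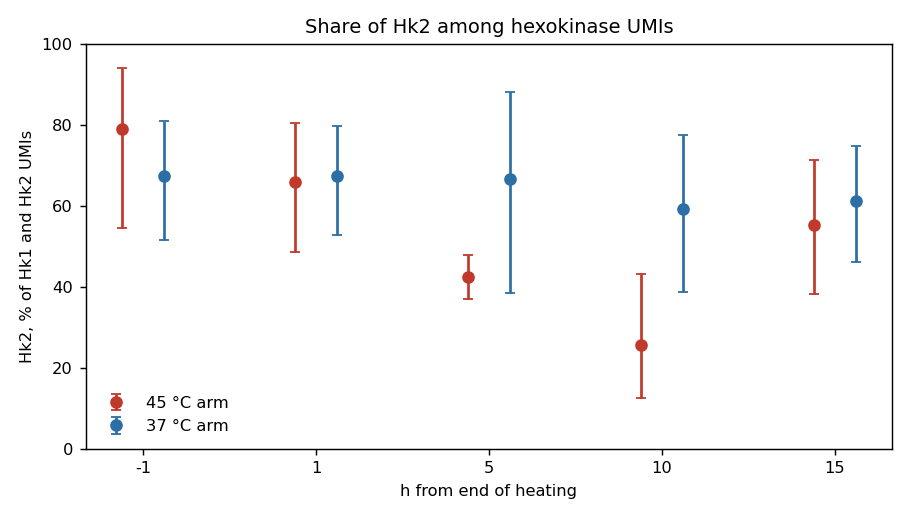
Hk2 as a percent of Hk1 and Hk2 UMIs (vertical axis, 0 to 100) by time of picking in h from the end of heating (horizontal axis), 45 °C in red and 37 °C in blue, with exact 95% binomial intervals. The heated points at 5 h (42.4%), 10 h (25.7%) and 15 h (55.3%) lie under all 37 °C points, which run from 59.3% to 67.4%.

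Pfkp, the platelet form of phosphofructokinase, catalyses the committed step of the pathway. It was at 144.7, 135.6, 110, 138.3 and 138.7 CPM in the 45 °C arm and at 202.7, 175.6, 118.96, 153.9 and 128.06 CPM in the 37 °C arm, in order of time. The heated group at 5 h was the lowest of the 10 but overlapped the 37 °C group picked then, with a log2 ratio of -0.14 (-0.65 to 0.48). Pfkp made up 59.97% (57.2 to 62.7) of the UMIs of Pfkp, Pfkl and Pfkm at 5 h, 72.3% (65.4 to 78.6) at 10 h and 75% (66.4 to 82.3) at 15 h in heated cells. In 37 °C cells it made up 58% (43.2 to 71.8), 62.8% (46.7 to 77.02) and 61.96% (51.2 to 71.9), so the heated shares at 10 h and 15 h were higher than every unheated share, which lay between 57.4% and 62.8%, with intervals that overlapped those of 37 °C. Pfkl, the liver form, had 46.9 CPM at 10 h and 34.3 CPM at 15 h in heated cells, against 69.3 and 67.4 CPM at 37 °C.

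Aldoa, the aldolase that splits the 6-carbon sugar, did not separate the arms after heating. It was at 495, 568, 559.7, 518 and 421 CPM in the 45 °C arm and at 721, 565, 517, 450.2 and 497 CPM in the 37 °C arm. Its clearest difference was the one before heating (log2 -0.54, -0.89 to -0.22), and later ratios ran from -0.24 to 0.19 with intervals that held 0. In the 37 °C groups of 6 cells, 1 cell had 801 CPM at 5 h and another 1098 CPM at 10 h, each well above its neighbours.

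Tpi1, which interconverts the 2 triose phosphates, was the other member whose heated levels stood apart late. In the 45 °C arm it was at 369 CPM (290.0 to 464), 411 CPM (353 to 476), 319 CPM (306 to 333), 202.4 CPM (174.9 to 232) and 187.9 CPM (156.55 to 224) in order of time. In the 37 °C arm it was at 403 CPM (347 to 466), 425 CPM (363 to 494), 299 CPM (235 to 377), 346 CPM (264 to 446) and 331 CPM (281 to 391). The heated groups at 10 h and 15 h were the 2 lowest of the 10, and their intervals did not touch that of the next group, 37 °C at 5 h.

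The log2 ratio of Tpi1 was -0.12, -0.05 and 0.08 at -1, 1 and 5 h, with intervals that held 0, then -0.79 (-1.20 to -0.34) at 10 h and -0.82 (-1.18 to -0.47) at 15 h. Against the own arm before heating, the 45 °C groups were at -0.88 (-1.26 to -0.46) and -0.98 (-1.40 to -0.54) at these times, and the 37 °C groups at -0.21 (-0.67 to 0.21) and -0.28 (-0.60 to 0.04). With size factors the ratio at 10 h was -0.58, at the 1.5-fold line, and that at 15 h was -0.72. In single cells at 15 h the heated cells ran from 0 through 180.9 to 414 CPM, against 0, 319.6 and 518 CPM at 37 °C. Of the 21 heated cells, 20 lay below the median 37 °C cell, and 0 below the lowest, since a 37 °C cell also had none. Without the 2 Rn45s-dominated cells the lowest and median heated cell had 75.1 and 193.8 CPM.

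Gapdh, which makes NADH and is widely used as a reference gene, was at 1389.8, 1593, 1467, 1476 and 1132.5 CPM in the 45 °C arm and at 1466, 1424, 1273, 1477 and 1294 CPM in the 37 °C arm. The heated group at 1 h was the highest of the 10 and that at 15 h the lowest, so that the 2 extremes of Gapdh were both heated groups. Its log2 ratios stayed small, at -0.07 (-0.28 to 0.13), 0.16 (0.00 to 0.33), 0.20 (0.04 to 0.37), 0.00 (-0.19 to 0.20) and -0.19 (-0.35 to -0.03). The 10 h value was 0.20 with size factors.

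Pgk1, which makes the first ATP of the pathway, was at 474, 626, 519.5, 406 and 361 CPM in the 45 °C arm and at 539.7, 531, 382, 416 and 443 CPM in the 37 °C arm. It had the highest ratio of the members at 1 h, at 0.24 (-0.03 to 0.50), and at 5 h, at 0.44 (0.15 to 0.76). The 5 h value came with a low 37 °C group of 93 UMIs: against all unheated cells it was 0.12 (0.02 to 0.23). The ratio at 15 h was -0.29 (-0.57 to -0.02).

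Eno1, the main enolase, and Pkm, the pyruvate kinase gene outside liver and red cells, had similar courses. Eno1 was at 488, 499, 539, 393 and 358 CPM in the 45 °C arm and at 574, 513, 454, 461 and 399 CPM in the 37 °C arm. Pkm was at 634, 641, 616, 485 and 457 CPM in the 45 °C arm and at 656, 582, 517, 594 and 521 CPM in the 37 °C arm. For both genes the heated groups at 10 h and 15 h were the lowest of the 10, but every group overlapped its neighbour in order, and the ratios at 10 h (-0.24 for Eno1 and -0.30 for Pkm) and 15 h (-0.16 and -0.19) had intervals that held 0. With its copy Eno1b added, the Eno1 values stayed within the counting intervals.

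Ldha, the lactate dehydrogenase subunit of glycolytic cells, was at 978 CPM (846 to 1125), 966 CPM (875 to 1062), 850.3 CPM (829 to 873), 516 CPM (472 to 563) and 577 CPM (521 to 638) in the 45 °C arm. In the 37 °C arm it was at 994 CPM (904 to 1090), 907 CPM (816 to 1006), 682 CPM (581 to 793), 765 CPM (637 to 903) and 608 CPM (539 to 686). The lowest groups of the 10 were the heated ones at 10 h and 15 h, but the 15 h one overlapped the 37 °C group picked then.

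The log2 ratio of Ldha was 0.32 (0.10 to 0.55) at 5 h, -0.56 (-0.84 to -0.27) at 10 h and -0.08 (-0.30 to 0.15) at 15 h. The 5 h value was 0.04 (-0.04 to 0.13) against all unheated cells. Against the 45 °C arm before heating it was -0.21 (-0.41 to 0.01). With any single cell left out, the 10 h value lay between -0.73 and -0.45, and with size factors it was -0.36. At 15 h both arms were low against their own start, by -0.76 (-1.01 to -0.51) in the 45 °C arm and -0.71 (-0.93 to -0.49) in the 37 °C arm. Over single cells at 10 h, the heated cells ran from 0 through 482 to 1865 CPM and the 37 °C cells from 212.1 through 793 to 1207 CPM, and 46 of the 52 heated cells lay below the median 37 °C cell. Without the 7 Rn45s-dominated cells the heated median was 517 CPM. Other forms hardly counted in these cells: Ldhb had at most 1 UMI in any group, and Pklr had none.

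**Figure D4:**
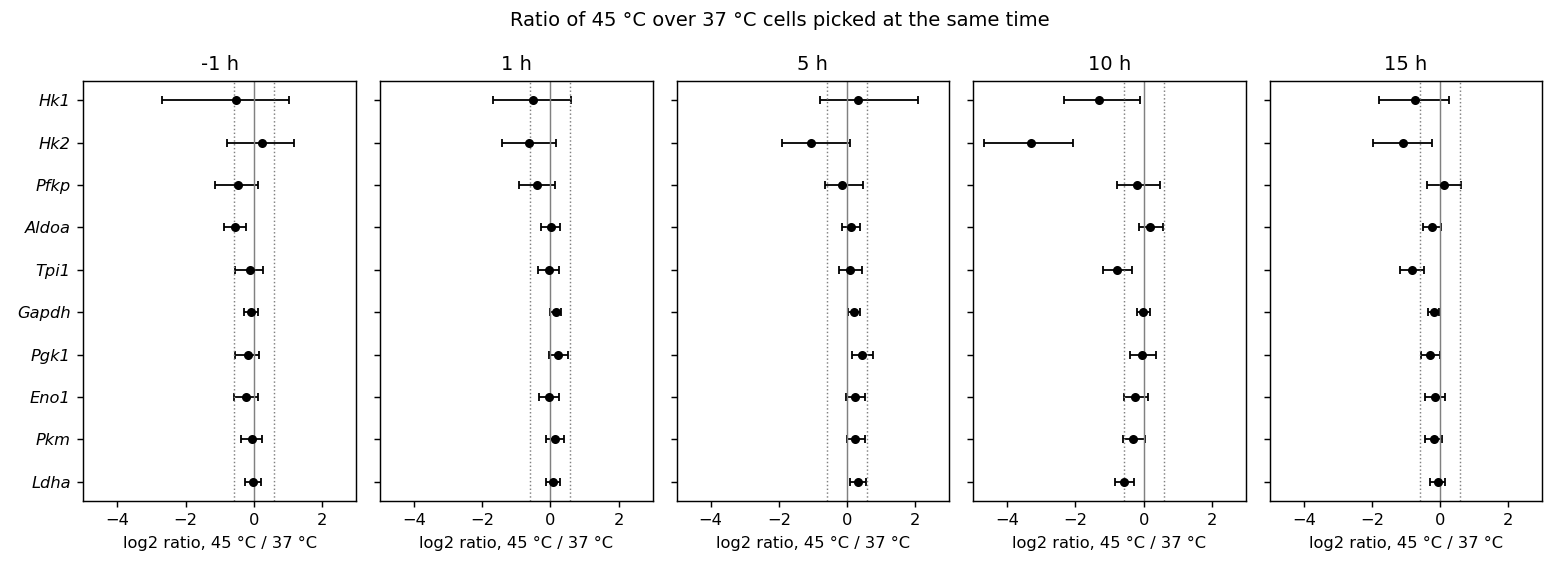
Log2 ratio of 45 °C over 37 °C for each of the 10 enzymes (rows) at the 5 times (panels), with exact 95% intervals for counting error, a solid line at 0 and dotted lines at 1.5-fold. On CPM, Hk2 lies left of the dotted line at 1, 5, 10 and 15 h, Hk1 and Tpi1 do at 10 h and 15 h, and every other point lies right of it. With size factors, Hk2 at 1 h (-0.54) and Tpi1 at 10 h (-0.58) are inside the line, and Aldoa before heating is past it.

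The cells heated and picked at 5 h, the largest group, show how far the enzymes vary together. Over all its cells, the 21 pairs of the 7 abundant members (Aldoa, Tpi1, Gapdh, Pgk1, Eno1, Pkm and Ldha) had Pearson correlations of log2(CPM + 10) from 0.43 to 0.76, with a median of 0.60. Without the 2 Rn45s-dominated cells they ran from 0.12 to 0.59, with a median of 0.45. The 24 pairs with Hk1, Hk2 or Pfkp had a median of 0.12, or 0.08 without those cells. By rank (Spearman), the 21 pairs had lower upper ends, from 0.13 to 0.49 over all cells and from 0.11 to 0.47 without the 2 cells. Over that group Hk1 and Hk2 had 190 and 140 UMIs, fewer than 1 per cell, and Pfkp had 749. Points are cells of 1 sample that share depth and total, so these values are a description.

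**Figure D5:**
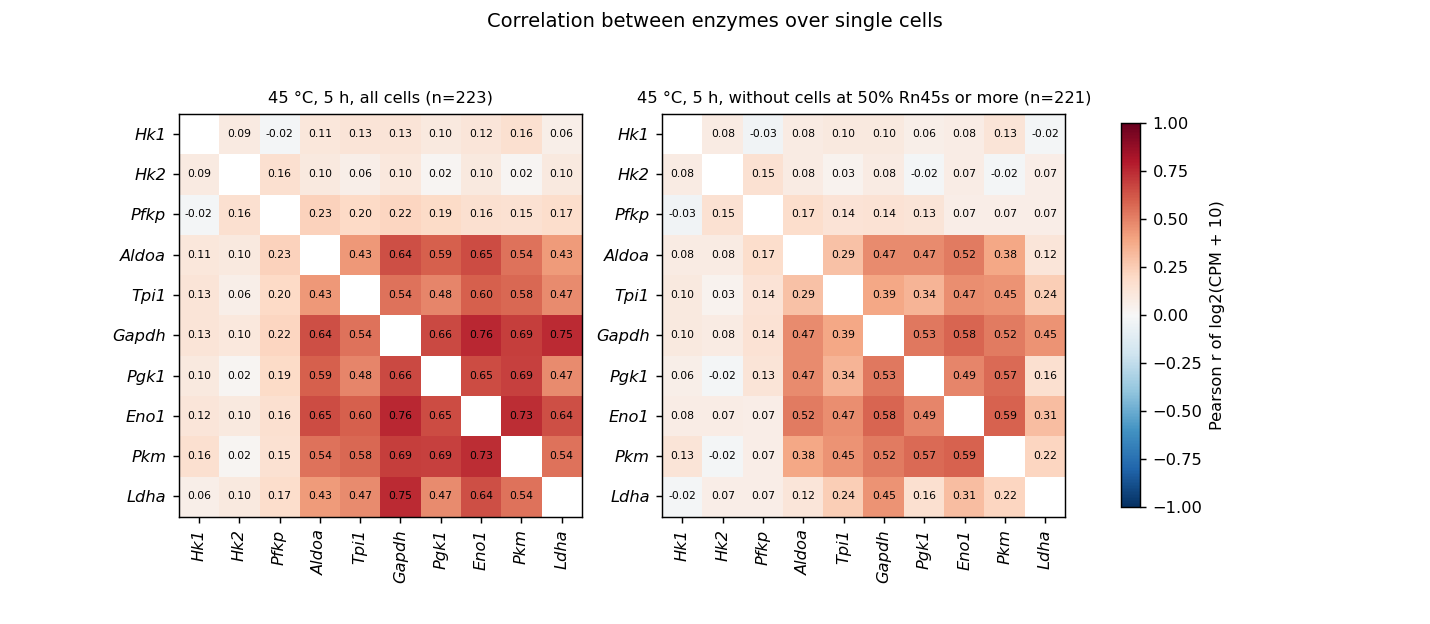
Pearson correlation of log2(CPM + 10) between each pair of enzymes over the heated cells picked at 5 h, with all cells on the left and, on the right, without the 2 cells that had Rn45s at 50% of UMIs or more. The 7 abundant members form a block with values from 0.43 to 0.76 on the left and from 0.12 to 0.59 on the right, and pairs with Hk1, Hk2 or Pfkp run from -0.02 to 0.23 on the left and from -0.03 to 0.17 on the right.

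At 10 h the same 21 pairs had a median Pearson correlation of 0.69 over 52 cells and 0.20 over the 45 cells without Rn45s dominance. By rank they ran from 0.16 to 0.69 over the 52 cells and from -0.17 to 0.53 over the 45. The summed level of the members went with the total UMIs of a cell at r = 0.76 at 10 h over all cells and at -0.03 without the 7 cells. At 5 h it was 0.34 and 0.31. The level of Rn45s ran against the sum at r = -0.55 at 5 h (-0.36 without the 2 cells) and -0.78 at 10 h (-0.20 without the 7 cells).

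The genes most like the summed members over the 5 h heated cells, out of 4453 genes with a UMI in at least 50% of them, were the Gapdh copy Gm12070 (r = 0.89), the ribosome-bound scaffold Rack1 (0.84), the elongation factor subunit Eef1b2 (0.80) and the ribosomal protein genes Rps9 (0.80) and Rpl7 (0.79). Without the 2 Rn45s-dominated cells these were at 0.71, 0.27, 0.23, 0.36 and 0.41. The 4 most alike after Gm12070 were then Eif5a (0.57), Ebna1bp2 (0.53), Ncl (0.52) and Pa2g4 (0.51), so that the list rests on 2 cells for 4 of its 5 names.

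Of the 33 other genes of glycolysis, its regulation and glucose uptake, 13 or 14 were measured at each time after heating. Before heating, 2 of 11 were 1.5-fold lower (Slc2a1 and Slc16a1), and at 1 h 2 of 13 (Bpgm and Adpgk). At 5 h, 4 of 14 were lower (Slc2a1, Bpgm, Slc2a3 and Adpgk), with a median of -0.30 beside -0.23 for all genes. At 10 h, 6 of 13 were lower, with a median of -0.43 beside 0.00. At 15 h 1 of 14 was lower (Pfkl) and 2 were higher (Bpgm and Slc2a3). The shares of all genes lower were 19.6%, 30.5%, 19.2% and 12% at 1, 5, 10 and 15 h, and those higher 5.70%, 12.5%, 21.9% and 12.3%. Before heating 12.8% of all genes were lower. None of the listed genes was 1.5-fold higher at 1, 5 and 10 h.

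The glucose transporter gene Slc2a1 was at 13.1 CPM in heated cells at 5 h, against 49.2 CPM at 37 °C (log2 -1.95, -2.77 to -0.89), and at 31.6 against 40.4 CPM at 10 h (-0.43, -1.56 to 1.08). Bpgm, which makes 2,3-bisphosphoglycerate, was at 10.9 against 26.7 CPM at 5 h (-1.29, -2.37 to 0.31) and at 52.2 against 20.2 CPM at 15 h (1.31, 0.28 to 2.61). Tigar, a fructose bisphosphatase that slows the pathway, was at 21.4 against 46.2 CPM at 10 h (-1.16, -2.34 to 0.28). Gpi1, the isomerase after hexokinase, was at 282 against 201.01 CPM at 5 h (0.47, 0.08 to 0.93) and at 233 against 283 CPM at 10 h (-0.29, -0.73 to 0.19). Pgam1, the mutase before enolase, was at 337 against 439 CPM at 10 h (-0.39, -0.74 to 0.00). Eno1b followed Eno1, at 401 against 466 CPM at 10 h (-0.23, -0.57 to 0.14).

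The hypoxia genes outside glycolysis had calls both ways, several of them on few UMIs. Of 26 listed, 18 were measured at 5 h, of which 5 were lower (Hif1a, Egln2, Bnip3, Ak4 and Tfrc) and 4 higher (Vegfa, Bhlhe40, Ddit4 and Kdm3a). Of 15 measured at 10 h, 5 were lower (Arnt, Hif1an, Higd1a, Mif and Tfrc) and 4 higher (Vhl, Egln1, Ddit4 and Kdm3a). All genes had 30.5% lower and 12.5% higher at 5 h, and 19.2% and 21.9% at 10 h. At 37 °C, Vegfa, Bhlhe40, Ddit4 and Kdm3a had 4, 1, 1 and 5 UMIs at 5 h. Bhlhe40 and Ddit4 at 5 h and Vhl and Ddit4 at 10 h reached 10 CPM only in heated cells. Ak4 at 5 h did so only at 37 °C. Among genes higher, intervals held 0 for Bhlhe40 (-0.64 to 7.19) and Kdm3a (-0.42 to 2.46) at 5 h. They also held 0 for Vhl (-0.29 to 7.66) and Ddit4 at 10 h. Among genes lower they held 0 for Egln2, Bnip3 and Ak4 at 5 h, and for Arnt, Hif1an and Higd1a at 10 h. Before heating, 1 of 12 was lower (12.8% of all genes) and 5 were higher (11.8%), Ddit4 and Tfrc among them. At 15 h, 3 of 12 were lower (Arnt, Vegfa and Higd1a) and 0 higher, against 12% and 12.3% of all genes. Ddit4, an inhibitor of mTORC1 that other stresses also raise, was at 56.03 CPM in heated cells at 5 h, against 1 UMI or 4.10 CPM at 37 °C (log2 3.19, 1.29 to 9.08), and at 21.4 CPM at 10 h, against 0 UMIs at 37 °C. The 45 °C arm before heating had 69.9 CPM, so neither heated group lay above the unheated range. Set against the floor of 3 UMIs over that group, 17.3 CPM, the 10 h level is 0.31 higher on the log2 scale. The exact interval of the 10 h ratio began at -0.12 and had no upper limit, so it held 0. The transferrin receptor gene Tfrc was at 227 against 472 CPM at 5 h (-1.06, -1.33 to -0.77) and 139.8 against 303 CPM at 10 h (-1.11, -1.57 to -0.61). Mif, a cytokine gene, was at 771 against 1275 CPM at 10 h (-0.73, -0.94 to -0.50), and Ak4, a mitochondrial adenylate kinase, at 5.58 against 16.4 CPM at 5 h (-1.71, -3.03 to 0.39).

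Of the 7 pentose phosphate genes, all measured, 4 were lower at 5 h (G6pdx, Pgd, Rpia and Rpe; median -0.60), 2 at 10 h (Pgls and Rpia; median 0.24) and 0 at 15 h (median 0.11), and none was higher at these times. Of all genes 30.5% were lower at 5 h, with a median of -0.23, 19.2% at 10 h and 12% at 15 h. The shares of all genes higher were 12.5%, 21.9% and 12.3% at these times. Tkt, a transketolase, was at 269.9 against 184.6 CPM at 5 h (0.53, 0.12 to 1.01), and Taldo1, a transaldolase, at 221.5 against 151.5 CPM at 10 h (0.54, -0.03 to 1.21). Rpe, the epimerase, was at 42.1 against 73.8 CPM at 5 h (-0.85, -1.50 to -0.03), and Rpia, the isomerase, at 27.04 against 51.9 CPM at 10 h (-1.02, -2.11 to 0.31). Before heating Rpe was already lower, at 34.9 against 70.5 CPM (-0.94, -2.44 to 0.19), the 1 of 7 genes lower then. The list had a median of -0.23 before heating, when 12.8% of all genes were lower, with a median of 0.01.

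The last list held 26 genes of pyruvate dehydrogenase and the citrate cycle, which burn what glycolysis delivers. At 5 h, 2 of 24 measured were lower (Ogdh and Sdhd) and 1 higher (Dld), where 30.5% of all genes were lower and 12.5% higher. At 10 h, 7 of 23 were lower and 3 higher (Pdhx, Idh3b and Sucla2), where 19.2% of all genes were lower and 21.9% higher. Before heating, 3 of 22 were lower and 1 higher, where 12.8% of all genes were lower and 11.8% higher. The medians of this list were -0.04 before heating, -0.06 at 5 h, -0.44 at 10 h and -0.29 at 15 h. Sdhb, a succinate dehydrogenase subunit, was at 153.6 against 358 CPM at 10 h (-1.23, -1.66 to -0.77), and Idh3b, of isocitrate dehydrogenase, at 166.35 against 98.1 CPM (0.72, 0.04 to 1.58). Dld was at 95.5 against 49.2 CPM at 5 h (0.90, 0.14 to 1.92) and Sdhd at 120.7 against 196.9 CPM (-0.72, -1.13 to -0.25). Mdh2 was at 326 against 508 CPM at 15 h (-0.64, -0.92 to -0.37) and the citrate synthase gene Cs at 205.08 against 297 CPM (-0.53, -0.88 to -0.17). Cs had ratios above 0 earlier, at 0.34 (-0.04 to 0.79) at 5 h and 0.37 (-0.12 to 0.93) at 10 h. The medians of the enzymes and of these mitochondrial genes lay under that of all genes at both late times. They also lay under it before heating (-0.15 and -0.04 beside 0.01). Size factors move all ratios alike, so they could not change this order. The difference between the 2 lists was not tested. Genes named only through a count of 5 or fewer were picked after their values had been seen.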

How the data were processed

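Each sample was 1 cell of C1498. The authors deposited 1 table of estimated counts of molecules, unscaled, with a row per gene and a column per cell. Of the 1732996 values above 0, 5.30% were more than 0.02 from a whole number. The aligner STAR and the mouse build mm10 come from the submitters' processing notes. How molecules were counted, and whether cells were filtered first, is not given in the sources used here. RNA was fragmented and primed at poly(A) per the labels' protocols, so CPM was not divided by gene length, and levels are compared between groups and not between genes.

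UMIs of a group were summed and divided by the group's total (CPM). For the UMI counts, intervals and ratios the sums were rounded to whole numbers, so a small level can differ slightly from its rounded count. Because the table holds fractions, this rounding replaced the whole counts first planned. Ratios had 0.5 UMI added. Intervals at 95% are exact Poisson, conditional binomial (Clopper-Pearson) and binomial ones, and they and the floor of 3 UMIs over a group cover counting error only. Doublets were not searched for in cells picked one by one. The ratio was tested on simulated counts. Transcripts were compared with blastn 2.17.0, and the rest used Python 3.11.15 with pandas 2.3.3, numpy 2.4.6 and scipy 1.17.1.

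The members and the gene lists were chosen with earlier results of these data known. Named from each list were the genes with the highest and lowest ratio at 5 h and at 10 h and the 2 with most UMIs in unheated cells, and beside the lists the 5 genes most alike. Alternatives were other totals, size factors, controls, cells and members, and each cell left out in turn. Added after seeing the data were fits leaving out Rn45s-dominated cells (also for correlations), adding the copies of Eno1 and Gapdh, and size factors over the 10 groups.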

Additional observations from a re-analysis of the deposited data

Results flagged for a closer look

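Of 33 checks for a cell far from the others of its group, in groups of 4 to 10 cells, 3 passed the 95% critical value of Dixon's test, where chance gives about 1 in 20. For Hk2, cell 1 of the 45 °C group before heating had 235.7 CPM (8 of the 15 UMIs of its group), and the nearest other cell 53.8 CPM. Without this cell the Hk2 ratio before heating was -0.53 in place of 0.25, and the level of this group is the baseline behind the own-arm values of Hk2. For Aldoa, cell 6 of the 37 °C group at 5 h had 801 CPM, against 538 CPM in the nearest cell, and cell 4 of the 37 °C group at 10 h had 1098 CPM, against 446 CPM. No member moved in opposite directions in every cell of a pair of groups.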

How the results depend on the processing

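No paired analysis was possible because each group is 1 sample and cell numbers name no shared culture. Of 58 settings of the summed ratio, 50 stayed within its counting interval. Size factors gave 0.37 at 5 h, -0.01 (-0.0091) at 10 h and -0.13 at 15 h. All unheated groups as control gave 0.021 at 5 h and -0.42 at 15 h, the 45 °C group before heating gave -0.013 and -0.46, and the mean of single-cell CPM gave -0.38 at 10 h. With each cell left out in turn the sum ranged from -0.24 to -0.07 at -1 h, 0.02 to 0.13 at 1 h, 0.18 to 0.27 at 5 h, -0.30 to -0.15 at 10 h and -0.28 to -0.19 at 15 h.

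Of 470 settings of single enzymes and of shares of all genes, 430 were close to the main value, 38 moved and 2 reversed: Hk1 against the 45 °C group before heating, 0.27 at 10 h and 0.22 at 15 h. Cause was not tested, beyond the other control. Hk2 at 1 h stayed 1.5-fold lower in 6 of 9 settings. It lost the call without cell 7 of 37 °C (-0.43), with size factors, and with a total without Rn45s and polymerase III RNAs. Hk1 at 15 h fell short of 1.5-fold without cell 9 of 37 °C (-0.55), and Tpi1 at 10 h with size factors (-0.58). Ldha at 10 h reached it without cell 3 of 37 °C (-0.73), and Aldoa before heating reached it with size factors. Genes 1.5-fold lower at 10 h were 19.2% in the main filter, 7.21% at 2-fold, 9.55% with 200 UMIs and 30.3% with no filter, and at 15 h 12%, 2.18%, 6.90% and 19.2%. Group totals are lowest in the 3 groups of 6 cells: 45 °C before heating, and 37 °C at 5 h and 10 h. The median UMIs per cell is lowest at 45 °C, 10 h (18741).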
